A study of Caenorhabditis elegans with 4 samples.

Results

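The 8 fatty acid and retinol binding protein genes of Caenorhabditis elegans, far-1 to far-8, were taken from a table of 13758 genes by matching the sequence name of each row to the WBcel235 gene annotation. All 8 were in the table, and 7 passed the filter on low values, since far-4 stood under 1 CPM (the authors' read count per gene, scaled to the size of the library) in every library. The study compared 2 libraries of wild-type animals, strain N2 (Bristol), with 2 libraries of strain GG14, which carries fasn-1(g14), a mutation in the fatty acid synthase gene. The records give every library a parent culture of 72 hours and 4 generations fed beforehand. Both groups went through the same early-life starvation, which the controls share: embryos from bleached parents were kept without food at 20 °C for 8 days, so that the larvae remained in L1 arrest, the halt in development of unfed hatchlings. Afterwards 750 live animals were fed HT115 bacteria with an empty vector, on plates that held 1 mM IPTG as well as 25 µg/ml carbenicillin, and whole early adults were collected about 68 hours later, when eggs were on the plates. Each library is therefore a pool of whole animals, the mutant is a single allele in a single strain, and the design text calls the 2 samples of a group biological replicates, numbered 3 and 4.

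FAR proteins are small, helix-rich lipid carriers found in nematodes, which bind fatty acids and retinol and have no close relative among vertebrate lipid carriers. In parasitic nematodes they are secreted in large amounts and have been studied as possible means of taking lipids from the host. In C. elegans, which makes only part of its fatty acids itself and takes the rest from bacteria, most members carry a predicted secretion signal, while FAR-7 has none and is thought to stay inside the cell. Sequence comparison has put FAR-1, FAR-2 and FAR-6, which are closest to the proteins of parasites, in a group of their own, FAR-3, FAR-4 and FAR-5 in another, and FAR-7 and FAR-8 apart from both.

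The libraries held 13960509 to 15889424 recovered reads, so that a floor of 3 reads corresponded to 0.188 to 0.203 CPM. In bulk samples of whole animals, fewer cells of a type and less RNA per cell cannot be told apart. The mutated gene, fasn-1, had 369 and 409.9 CPM in the wild-type libraries and 353 and 285 CPM in the mutant libraries (replicate 3 first, here and in every pair of values that follows) (log2 change -0.29, SE 0.11; limma, adjusted p = 0.1196), so its transcript level did not check the genotype labels. The animals of all 4 libraries carried adult transcripts, by the summed level of 6 yolk protein genes, their receptor gene rme-2 and dsc-4. That sum was 72418 and 77967 CPM in wild type and 123320.1 and 122876 CPM in the mutant, higher in both mutant libraries. Summed levels of tissue markers differed between the groups. The 8 pharynx markers summed to 1138 and 1222 CPM in wild type and 339 and 164 CPM in the mutant, the 10 neuron markers to 644 and 691 against 455 and 369 CPM, the 10 intestine markers to 2964 and 2850.3 against 3329 and 3503 CPM, and the 10 epidermis markers to 762 and 696 against 1056 and 1141 CPM. The higher epidermis sum came from col-19, a cuticle collagen gene: the other 9 markers summed to 393 and 402 against 364 and 314 CPM. Of these markers 6 of 8 fell for pharynx, 8 of 10 fell for neuron, 3 of 10 rose for intestine, and 1 rose and 2 fell of 10 for epidermis (limma). Over all genes tested 10.7% fell and 4.41% rose, so the epidermis counts lie near the background. Of 8 body wall muscle markers 1 rose and 4 fell, and of 6 sperm markers tested 5 rose. Each of these 6 sperm markers reached 1 CPM in both mutant libraries and none did in both wild-type libraries. The filter of 1 CPM in 2 or more libraries thus favoured sperm markers that were higher in the mutant, and their count of rises in part reflects it. The 7 sperm markers in the table summed to 3.64 and 5.87 CPM in wild type and 21.8 and 32.8 CPM in the mutant. Single wild-type values went down to 0.251 CPM (msp-57, replicate 3), near the floor of 3 reads. Without wild type replicate 4 the falls numbered 3 for neuron, 0 for epidermis and 2 for muscle, and the rises 1 for intestine, 0 for muscle and 3 for sperm. Without wild type replicate 3 the falls numbered 1 for epidermis and 2 for muscle, and the rises 2 for intestine, 0 for muscle and 3 for sperm. With mutant replicate 3 left out, the median log2 change was -0.49 for the epidermis markers and 0.44 for the intestine markers. With all 4 libraries it was -0.18 and 0.34. Over all genes tested, more were called in that fit and fewer in the fits without a wild-type library, so counts of markers move with the whole table. Without the mean-variance trend of the fit, 3 pharynx, 3 neuron, 1 muscle and 0 epidermis markers fell, and 1 intestine, 0 muscle and 3 sperm markers rose. None of these markers was at 0 in any library, and their part in the changes of the far genes was not tested.

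The far genes lay in 5 places of the genome (WBcel235). The genes far-1 (F02A9.2, WBGene00001385; chromosome III, 9080371 to 9081179, minus strand, 4 exons) and far-2 (F02A9.3, WBGene00001386; chromosome III, 9081828 to 9082511, plus strand, 2 exons) stood head to head, with 648 bases between their starts. On chromosome V, far-5 (F15B9.3, WBGene00001389; 12995569 to 12996836, plus strand), far-3 (F15B9.1, WBGene00001387; 12996787 to 12997522, minus strand) and far-4 (F15B9.2, WBGene00001388; 12998427 to 12999659, minus strand) formed a cluster of genes with 2 exons each. The ends of far-5 and far-3 overlapped by 50 bases on opposite strands, and the library kit does not mark strand, so reads from that stretch cannot be assigned to either gene. The remaining members stood alone: far-6 (W02A2.2, WBGene00001390) on chromosome IV at 13328359 to 13329314, plus strand, with 2 exons, far-7 (K01A2.2, WBGene00001391) on chromosome II at 319789 to 321110, plus strand, with 4 exons, and far-8 (K02F3.3, WBGene00001392) on chromosome III at 842930 to 843802, plus strand, with 3 exons. No other annotated gene overlapped any of the 8.

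Levels of the 8 genes spanned a wide range and were dominated by far-2 and far-1. Per length of transcript, far-2 had 1936 ± 32.6 CPM per kb in wild type and 2328 ± 105 in the mutant (SD, n = 2), and stood 18th of 13747 genes by its mean over the 4 libraries. The neighbouring far-1 had 608 ± 19.3 and 618 ± 31.6 CPM per kb and stood 166th. The rest of the family was lower: far-6 had 94.2 ± 6.87 and 63.01 ± 1.96 CPM per kb, far-8 had 31.7 ± 0.770 and 26.6 ± 0.572, and far-3 had 21.6 ± 4.71 and 11.5 ± 5.28. By the longest transcript, the order far-2, far-1, far-6, far-8, far-3 held in each of the 4 libraries, with no overlap of the ranges of neighbours in that order. Near the bottom, far-5 (5.15 to 6.82 CPM per kb) and far-7 (3.89 to 7.99) overlapped and had no fixed order. Their place depends on the transcript used: over the shortest annotated one, the wild-type level was 16.3 CPM per kb for far-5 and 23.3 for far-7, which is above that of far-3. The lowest was far-4, at 0.475 to 0.758 CPM per kb.

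**Figure D1:**
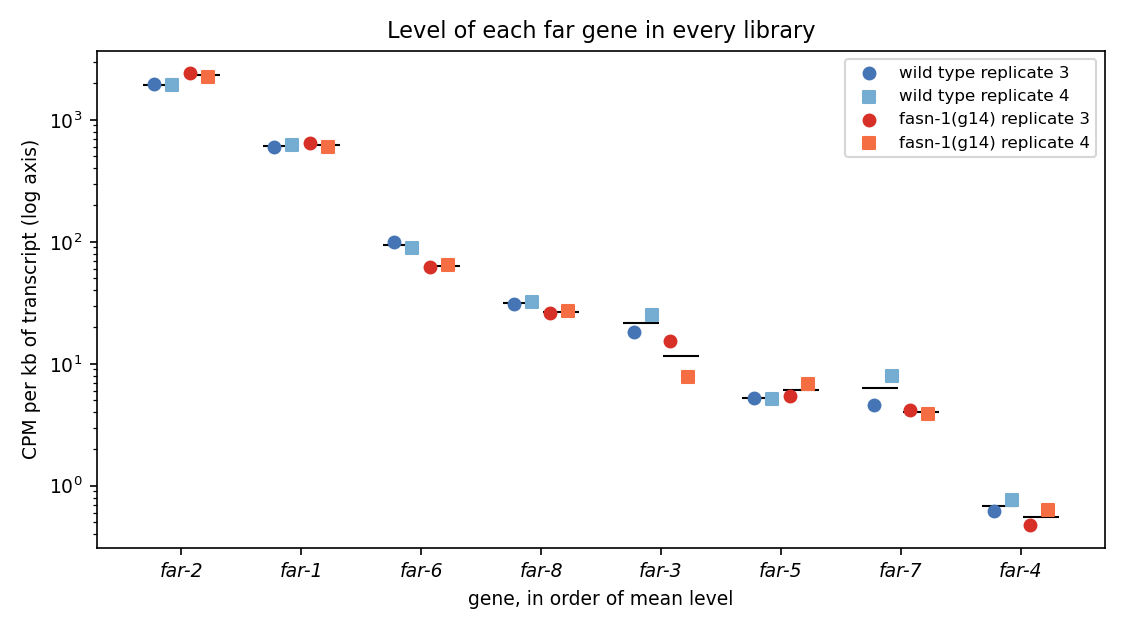
Level of each far gene in CPM per kb of its longest transcript (log axis), with 1 point per library and a short line at the mean of each group of 2 libraries. The plot shows far-2 above all other members in every library, far-6 lower in both mutant libraries (61.6 and 64.4) than in both wild-type libraries (99.09 and 89.4), and far-4 below 1 throughout.

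Only far-6 passed the test between the groups, and it fell in the mutant. Of the 7 members tested, 1 fell and 0 rose (limma on log2(CPM + 1), Benjamini-Hochberg adjusted p below 0.05 over 12977 genes), where 10.7% of all genes tested fell and 4.41% rose, 15.1% in all. At an unadjusted p below 0.05, limma gave 2 lower members, far-6 and far-3, and 1 higher member, far-2. The share of all genes at that unadjusted cut was not counted. This count, like the unadjusted counts of the gene lists below, therefore has no background and is no result about the family. Run on the recovered reads, edgeR called 0 members higher and 1 lower, with 3.38% of all genes higher and 7.04% lower, 10.4% in all. DESeq2 called 1 member higher, far-2, and 1 lower, far-6, with 3.91% of all genes higher and 8.15% lower, 12.1% in all. Both replicates of a group lay on the same side of the other group for 6 of the 7 members, 2 higher and 4 lower in the mutant, where the groups were as separate for 64% of all genes tested, 31.2% higher and 32.9% lower. The median log2 change of the 7 was -0.24, against 0.0019 over all genes tested. A share of 1 in 7 lies near the background, so the count is no result about the family.

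The gene far-6 encodes the member of the FAR-1 and FAR-2 group that lies apart from them in the genome. It had 89.97 and 81.2 CPM in the wild-type libraries and 55.96 and 58.5 CPM in the mutant libraries. Both mutant libraries were below both wild-type libraries, and the mutant pair lay close together. The mutant mean was 0.669 times the wild-type mean, and the log2 change was -0.57 (SE 0.094, 95% interval -0.79 to -0.35; limma, adjusted p = 0.01465). Of the genes tested, 19.4% had a lower change. The log2 change stayed between -0.64 and -0.50 when each library was left out in turn, but the call was lost without wild type replicate 3 (adjusted p = 0.09595) and without wild type replicate 4 (adjusted p = 0.0514), where the single wild-type library left was assumed to vary like the mutant pair. Without mutant replicates 3 and 4 in turn the log2 change was -0.54 and -0.60. There the single mutant library left was assumed to vary like the wild-type pair, so the p-values rest on that assumption and are not given. The reads behind it numbered 1432 and 1203 in wild type and 828 and 903 in the mutant, and the exact Poisson intervals of the wild-type libraries, 85.4 to 94.8 and 76.6 to 85.9 CPM, did not reach those of the mutant libraries, 52.2 to 59.9 and 54.7 to 62.4 CPM. These intervals (95%) cover counting error only.

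**Figure D2:**
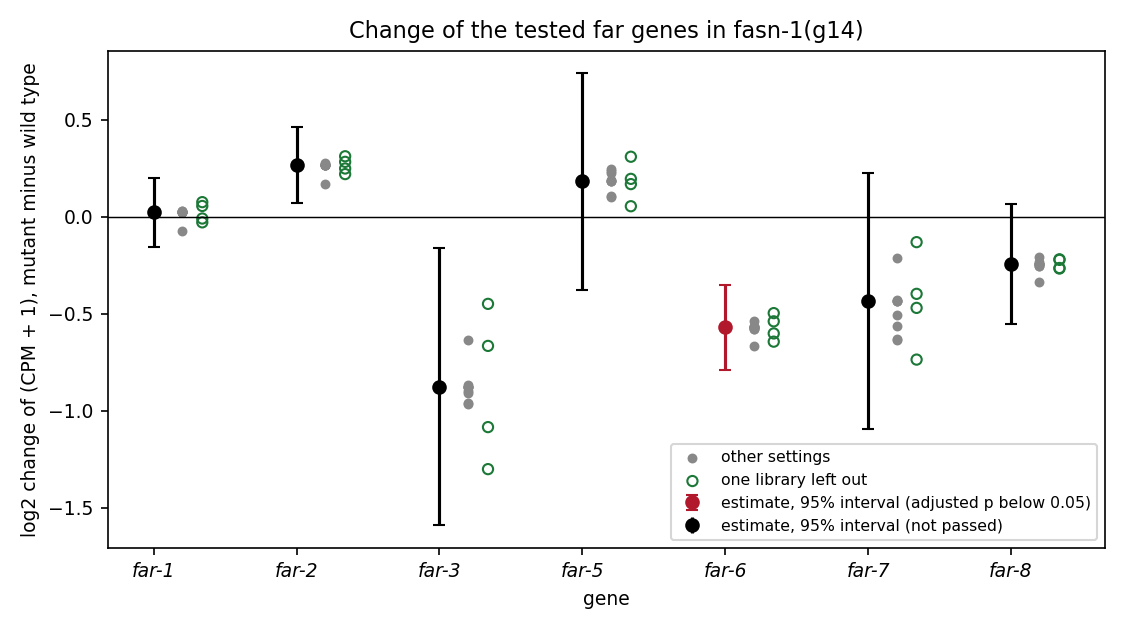
Log2 change of (CPM + 1), mutant minus wild type, of the 7 tested far genes, with the 95% interval of the limma fit. Grey points give the same change under the other settings tried and open circles with 1 library left out. The interval of far-6 (-0.79 to -0.35) and its points lie below 0, those of far-2 lie above 0, and the points of far-3 spread from -1.30 to -0.45.

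The pair of abundant genes, far-2 and far-1, did not share the direction of far-6. The level of far-2 was 1199 and 1170.4 CPM in wild type and 1470.04 and 1379 CPM in the mutant. Both mutant libraries were higher, by 1.20-fold on the means, yet the change did not pass (log2 change 0.27, SE 0.083, 95% interval 0.071 to 0.46; limma, adjusted p = 0.07043). Rescaling the libraries to an equal sum gave 0.17 (adjusted p = 0.1589). DESeq2 on the recovered reads called far-2 higher (adjusted p = 0.01462), while edgeR did not (adjusted p = 0.07493). The log2 change of far-2 was 0.22 and 0.31 without mutant replicates 3 and 4, and 0.28 and 0.25 without wild type replicates 3 and 4. Each of these fits leaves 1 library in a group, with its spread assumed from the other pair, so their calls are not used. The level of far-1 was 388 and 406 CPM in wild type and 418 and 389 CPM in the mutant, so the groups overlapped. The log2 change of far-1 was 0.023 (95% interval -0.15 to 0.20; limma, adjusted p = 0.8661), and turned to -0.075 with the libraries rescaled to an equal sum, to -0.0097 without wild type replicate 3 and to -0.029 without mutant replicate 3. The interval excludes a change of far-1 as large as that of far-6 in either direction.

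Proportions within the family were compared between the groups as a description, and the ratios to far-6 in part restate its fall. In each library far-2 exceeded far-1, and the ratio of their CPM was 3.09 and 2.88 in wild type and 3.52 and 3.55 in the mutant. The ratio of far-2 to far-6 was 13.3 and 14.4 in wild type and 26.3 and 23.6 in the mutant, and that of far-1 to far-6 was 4.31 and 5.002 against 7.47 and 6.65. These ratios do not depend on how the libraries were scaled, and in each of them both mutant libraries lay above both wild-type libraries. An exact permutation test of 2 libraries against 2 gives p = 0.333 for each of the 3 ratios (two-sided), the smallest it can give. The 8 genes together came to 1719.8 and 1708 CPM in wild type and 1981 and 1859.9 CPM in the mutant, of which far-1 and far-2 made up 92.3% in both wild-type libraries and 95.3% and 95.1% in the mutant libraries. The other 6 genes summed to 133.01 and 131 CPM in wild type and to 92.9 and 91.8 CPM in the mutant. The group means of this sum were 132 and 92.3 CPM, and those of far-6 alone, which is among the 6, were 85.6 and 57.2 CPM. The lower sum thus in large part restates the fall of far-6, while far-5 was higher in both mutant libraries. As a share of all CPM in a library, the 8 genes took 0.182% and 0.181% in wild type and 0.2002% and 0.181% in the mutant, so the higher sum in mutant replicate 4 is not seen on that scale.

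Of the chromosome V cluster, far-3 was lower in both mutant libraries but did not pass. It had 12.3 and 16.8 CPM in the wild-type libraries and 10.3 and 5.24 CPM in the mutant libraries. The groups did not overlap, but the replicates of each group were far apart, and the exact Poisson intervals of wild type replicate 3 (10.7 to 14.2 CPM) and mutant replicate 3 (8.70 to 12.04 CPM) overlapped. The means were 14.6 ± 3.17 and 7.76 ± 3.55 CPM (SD, n = 2), and the log2 change of -0.88 (SE 0.31, 95% interval -1.59 to -0.16) missed the threshold (limma, adjusted p = 0.09304). The gap between the mutant libraries exceeded counting error, with exact Poisson intervals of 8.70 to 12.04 and 4.17 to 6.52 CPM. The change of far-3 rested on mutant replicate 4: without mutant replicate 3 it was -1.30, and without mutant replicate 4 it was -0.45. The pharynx and neuron marker sums were likewise lowest in mutant replicate 4, and their part in the level of far-3 was not tested. A fit with a block for replicate number called far-3 lower (adjusted p = 0.01525).

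The other genes of the cluster are far-5, which did not pass, and far-4, which was not tested. The level of far-5, which overlaps the end of far-3, was 3.46 and 3.37 CPM in wild type and 3.58 and 4.47 CPM in the mutant (log2 change 0.18, SE 0.24; limma, adjusted p = 0.6366). Both mutant libraries were above both wild-type libraries, though the exact Poisson intervals of all 4 overlapped, from 2.50 CPM at the lowest to 5.65 CPM at the highest. The ratio of far-3 to far-5 was 3.56 and 4.98 in wild type and 2.87 and 1.17 in the mutant (exact permutation test, two-sided, p = 0.333, the smallest 2 against 2 can give), and the 95% intervals of their log2 changes overlapped. The third gene of the cluster, far-4, was represented by 7 and 8 reads in wild type and 5 and 7 reads in the mutant, or 0.440, 0.540, 0.338 and 0.453 CPM. It was above the floor of 3 reads in every library but below the filter, and no difference was detectable at this depth. Without the filter its log2 change was -0.095 (limma, adjusted p = 0.799).

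The FAR-7 and FAR-8 genes were lower in both mutant libraries, and neither passed. The level of far-8 was 24.4 and 25.2 CPM in wild type and 20.5 and 21.1 CPM in the mutant. The groups did not overlap and the replicates lay close together, though the exact Poisson intervals did overlap, those of wild type starting at 22.01 and 22.7 CPM and those of the mutant ending at 22.9 and 23.5 CPM. The log2 change of far-8 was -0.24 (SE 0.13, 95% interval -0.55 to 0.065) and missed the threshold (limma, adjusted p = 0.2428). The level of far-7 was 2.45 and 4.25 CPM in wild type and 2.23 and 2.07 CPM in the mutant. Wild type replicate 3 was near the mutant libraries and wild type replicate 4 was higher, and the mutant mean was 0.642 times the wild-type mean. The log2 change of far-7 was -0.43 (SE 0.28, 95% interval -1.09 to 0.22) and missed the threshold (limma, adjusted p = 0.3243). It ranged from -0.74 without wild type replicate 3 to -0.13 without wild type replicate 4. With 32 to 63 reads per library, the far-7 interval leaves room for a fall of more than 2-fold or a small rise.

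**Figure D3:**
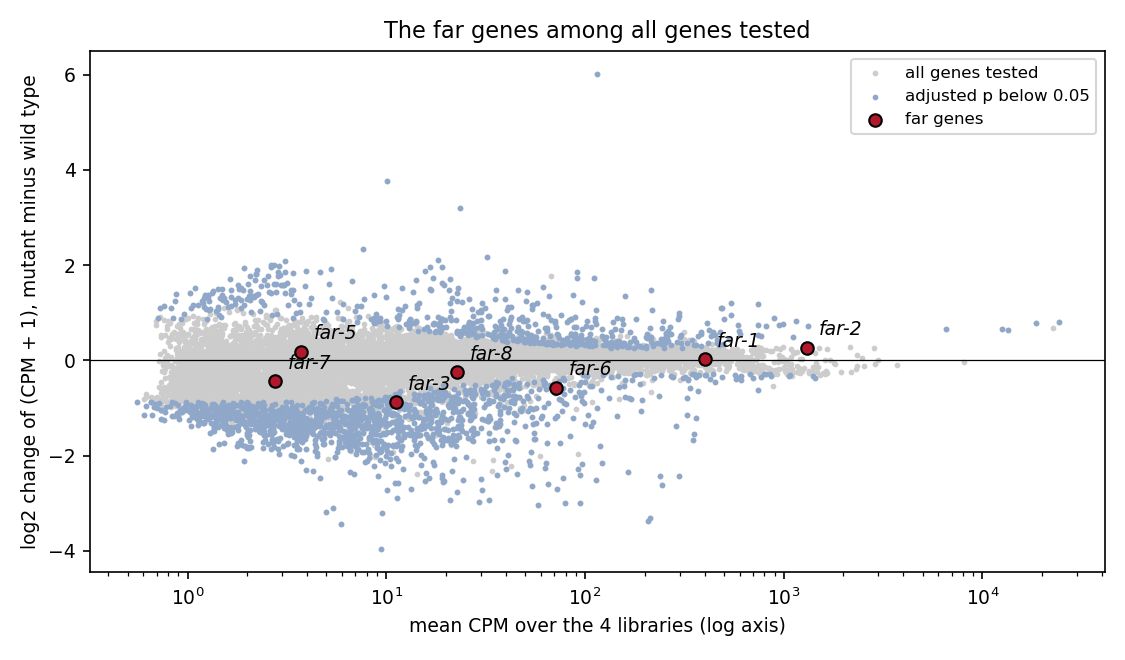
Log2 change of (CPM + 1), mutant minus wild type, against mean CPM over the 4 libraries (log axis) for the 12977 genes tested, with those at an adjusted p below 0.05 in blue and the 7 tested far genes in red. The far genes lie between -0.88 (far-3) and 0.27 (far-2), and far-6, at -0.57, is the one called.

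Of the nearest 3 protein-coding genes on each side of each far gene or cluster, 30 in all, 24 were in the table and 23 were tested, of which 2 rose, 3 fell and 18 did not pass (limma), counts near those over all genes tested, of which 4.41% rose and 10.7% fell. The 2 that rose are the upstream neighbours of far-6 on the same strand. The nearer of them, fat-2, encodes the desaturase that makes linoleic acid and ends 1963 bases before far-6. It had 370 and 394 CPM in wild type and 584 and 573 CPM in the mutant (log2 change 0.60, SE 0.074; limma, adjusted p = 0.00736). The next, fat-1, which encodes another fatty acid desaturase, had 318 and 311 CPM in wild type and 393 and 392 CPM in the mutant (log2 change 0.32, SE 0.069; limma, adjusted p = 0.02816). On the other side, pqn-74 runs toward far-6 on the opposite strand, 192 bases from its end, and fell from 56.6 and 60.98 CPM in wild type to 22.6 and 4.34 CPM in the mutant (log2 change -2.41, SE 0.57; limma, adjusted p = 0.0334). In position, far-6 lies between a neighbour that rose and one that fell. Without wild type replicate 3, fat-2 and fat-1 did not pass (adjusted p = 0.0553 and 0.208), and without wild type replicate 4, fat-1 and pqn-74 did not pass (adjusted p = 0.323 and 0.0514).

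The other falling neighbours were F15B9.8, beyond far-5 in the chromosome V cluster, and cbn-1, 7453 bases from far-7. The genes K01A2.10 and sgcb-1, which lie between far-7 and cbn-1, did not pass. F15B9.8 had 27.7 ± 4.56 CPM in wild type and 9.29 ± 4.54 CPM in the mutant, and cbn-1 had 9.40 ± 1.39 and 1.97 ± 0.948 CPM (SD, n = 2; limma, adjusted p = 0.0215 and 0.0132). Without wild type replicate 4 neither passed (adjusted p = 0.0751 and 0.0636). The head-to-head pair far-1 and far-2 lies between the Notch receptor genes lin-12 and glp-1, which direct cell fate and germline proliferation. Neither passed, lin-12 having a log2 change of -0.14 and glp-1 of 0.21 (limma, adjusted p = 0.7126 and 0.1531). The neighbours of far-8 did not pass either, K02F3.2 being nearest to the threshold (log2 change 0.28; limma, adjusted p = 0.0538).

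**Figure D4:**
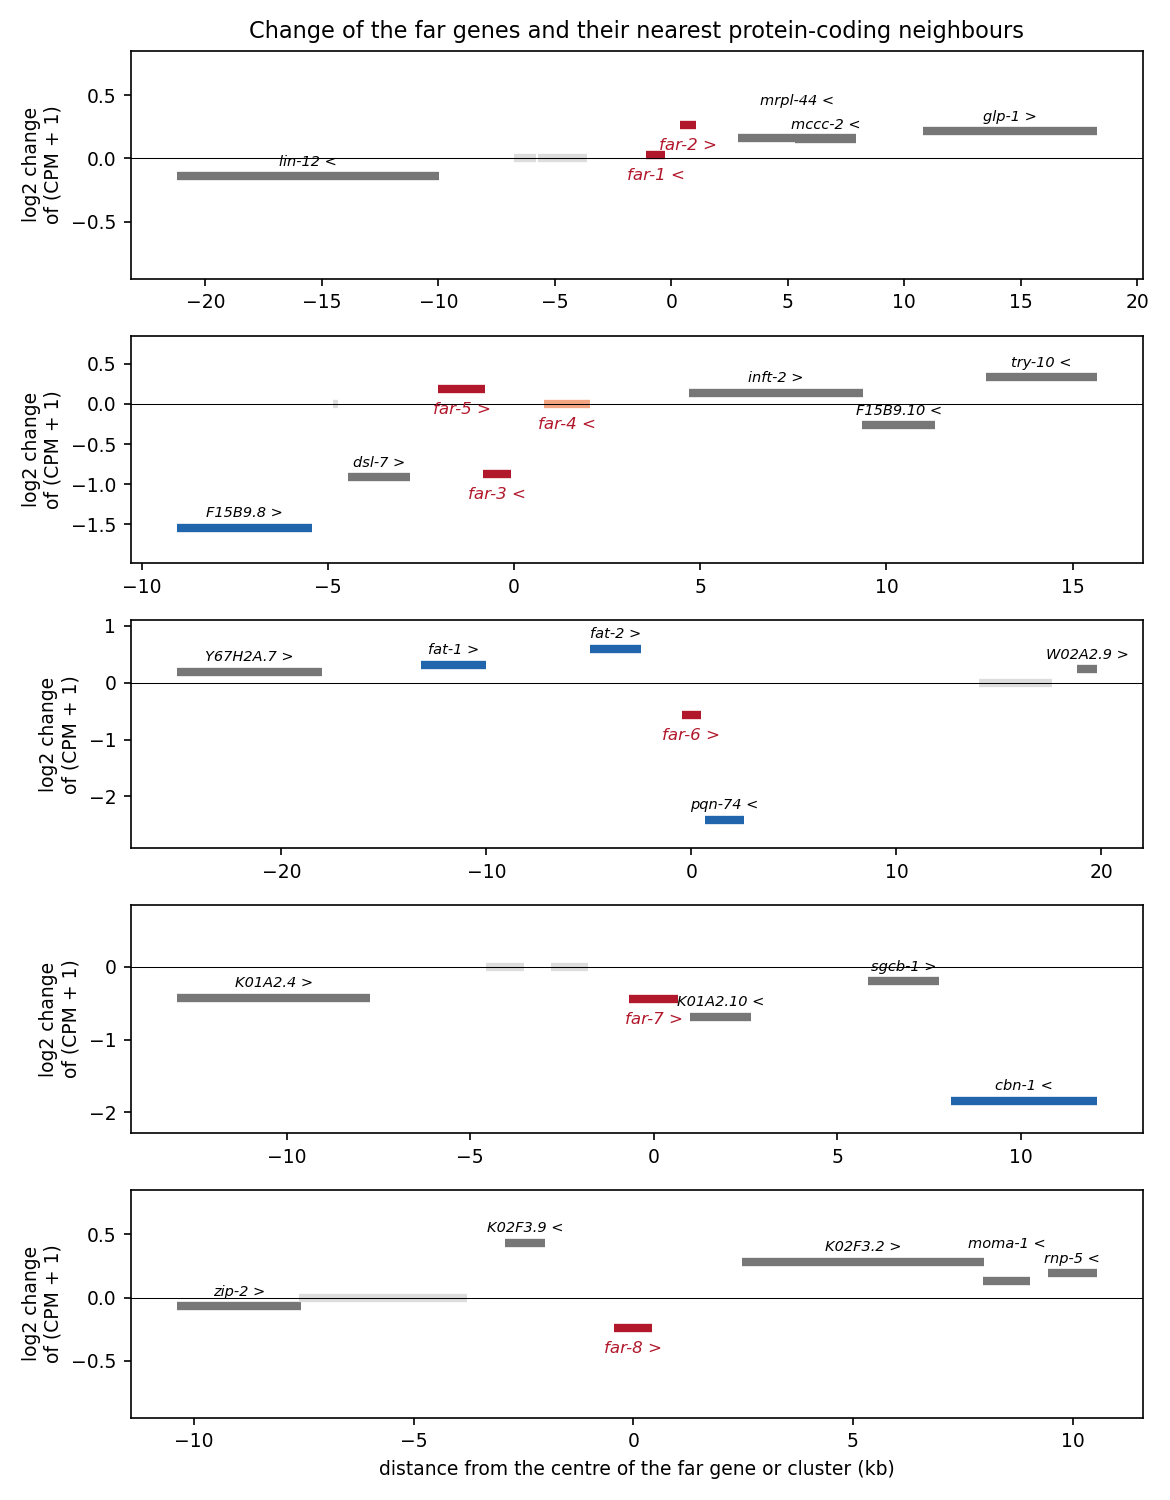
Log2 change of (CPM + 1), mutant minus wild type, of each far gene (red) and its nearest protein-coding neighbours (blue where the adjusted p was below 0.05, dark grey where not), against distance from the centre of the gene or cluster in kb, with > and < for the plus and minus strand. Light grey and light red bars on the zero line are genes that were not tested. In the panel of far-6 (-0.57), fat-2 (0.60) and fat-1 (0.32) lie above 0 and pqn-74 (-2.41) lies below.

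Other genes that carry, take up or make lipids were compared from fixed lists. The background for these counts is all genes tested, of which 4.41% rose and 10.7% fell (limma), with a median log2 change of 0.0019. Among 16 tested lipid carrier genes outside the far family, 5 rose, 0 fell and 11 did not pass (limma; 1 fell at an unadjusted p below 0.05, and edgeR and DESeq2 called 0 lower), with a median log2 change of 0.25. All 5 that rose encode vitellogenins, the yolk lipoproteins made in the adult intestine. Of these, vit-5 had 13658 ± 649 CPM in wild type and 23394 ± 563 in the mutant (log2 change 0.78, SE 0.17; limma, adjusted p = 0.0299), and vit-1 and vit-4 rose 1.59-fold and 1.57-fold. Vitellogenin genes are close copies, so reads can be split among them. The calls rested on both wild-type libraries: leaving out the first gave vit-1 an adjusted p of 0.368, vit-4 of 0.534 and vit-5 of 0.544, and leaving out the second 0.384, 0.574 and 0.584. A fit with a block for replicate number called none of the 6 vitellogenin genes (limma). Of the 16 carrier genes, edgeR and DESeq2 each called 6 higher. The intracellular lipid binding protein genes lbp-1 to lbp-9 encode another family of small fatty acid carriers, and of 8 tested 0 passed by limma (1 higher and 1 lower at an unadjusted p below 0.05), and 0 by edgeR or DESeq2. The smallest p-values there belonged to lbp-2, with a log2 change of 0.26, lbp-5, with -0.39, and lbp-4, with 0.26 (limma, adjusted p = 0.0809, 0.116 and 0.158).

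Of 5 acyl-CoA binding protein genes tested, acbp-3 fell (14.7 ± 0.226 CPM in wild type, 8.39 ± 1.42 in the mutant; log2 change -0.75, SE 0.20; limma, adjusted p = 0.0432), and the other 4 did not pass, acbp-5 having a log2 change of 0.27 and acbp-1 of 0.13. The call of acbp-3 was lost when either wild-type library was left out (adjusted p = 0.244 and 0.273), and neither edgeR nor DESeq2 made it. Of the 6 genes of the CD36 family of scavenger receptors, membrane proteins that take up lipids, scav-6 rose 1.98-fold from 7.61 ± 1.16 to 15.03 ± 1.02 CPM and scav-2 rose 1.34-fold (limma, adjusted p = 0.0282 and 0.0275), while scav-1, at a log2 change of 0.55, did not pass (adjusted p = 0.0525). With wild type replicate 3 left out and then replicate 4, scav-6 (adjusted p = 0.180 and 0.102) and scav-2 (0.118 and 0.191) did not pass. The only carotenoid cleavage gene in the table, bcmo-2, whose enzyme family makes retinal from carotene, had a log2 change of -0.052 (limma, adjusted p = 0.895). Of 20 genes of fatty acid synthesis, elongation and desaturation, 10 rose and 0 fell (limma; 3 fell at an unadjusted p below 0.05, and edgeR and DESeq2 called 0 lower), with a median log2 change of 0.45. Those with the smallest p-values were the desaturase genes fat-3, fat-2 and fat-4, at 1.67-fold, 1.51-fold and 1.37-fold, while the highest fold among the 10, 2.21, was that of fat-7, another desaturase gene, which was named after its values were seen and is a close copy of fat-6, so that reads can be split between them. Fewer of the 20 genes rose with either wild-type library left out and more with either mutant library left out, as among all genes tested. Some of the 20 fell without mutant replicate 3. The median log2 change of the 20 was 0.41 and 0.46 without wild type replicates 3 and 4. It was 0.45 and 0.29 without mutant replicates 3 and 4. Without the mean-variance trend 1 of the 20 rose, and with a block for replicate number 12 rose and 1 fell. By edgeR and DESeq2, 9 and 13 of the 20 rose.

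Profiles over the 4 libraries were compared by the root mean square distance of log2(CPM + 1) values centred on each gene's mean, as a description with no test. The genes nearest to far-2 were sqrd-1, M106.2 and F10E9.7, at distances of 0.0151, 0.0152 and 0.0158, and 218 genes lay within 0.05 of it. The genes nearest to far-6 were T10B10.4, Y119C1B.10 and T14F9.2, at 0.0183, 0.0214 and 0.0225, with 18 genes within 0.05. Within the family, the member nearest to far-2 was far-1 at 0.126, and the member nearest to far-6 was far-8 at 0.178. So many genes have a profile close to that of far-2 that nearness to it singles out no gene.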

How the data were processed

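The deposited table holds 1 normalized signal per gene and library in CPM, as the authors named it, with columns that sum to between 941734 and 1028879. Per the submitters' processing notes, the tools were Bowtie2 2.3.3.1, HTSeq 0.12.4 and, listed last, edgeR 3.28.1. Which build, annotation and gene filter the authors used was not given in the sources used here. A further 8 library columns were not used. Rows were matched to genes through the transcript names of the Ensembl release 115 annotation of WBcel235 (13747 of 13758). Per column, 100% of values were whole multiples of the value of 1 read within 0.001 read, so reads were recovered.

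The test covered the 12977 genes that reached 1 CPM in 2 or more libraries, with limma 3.58.1 in R 4.3.3 on log2(CPM + 1), with a mean-variance trend, two-sided, Benjamini-Hochberg adjusted over all genes tested at 0.05. Fold changes on that scale understate those of low genes. edgeR 4.0.16 and DESeq2 1.42.0 were run on the recovered reads as alternatives chosen after seeing the data, and called 439 genes higher and 913 lower, and 507 higher and 1057 lower. Levels were divided by the longest annotated transcript. Groups and replicate numbers came from the titles. Members, lists and the rule for named genes (all members, fasn-1, the 3 smallest p-values of each list, neighbours past the threshold, the 3 nearest profiles) were chosen with earlier results of these data known, and lin-12, glp-1 and K02F3.2 were named after their values were seen. The fits were tested on simulated data.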

Additional observations from a re-analysis of the deposited data

How the results depend on the processing

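The fall of far-6 kept its direction in every setting, between -0.67 and -0.54 on the log2 scale apart from left-out libraries (-0.64 to -0.50), and lost its call without the mean-variance trend (-0.57, adjusted p = 0.0632). Leaving out 1 library gave -0.029 to 0.075 for far-1, 0.22 to 0.31 for far-2, -1.30 to -0.45 for far-3, 0.054 to 0.31 for far-5, -0.74 to -0.13 for far-7 and -0.27 to -0.22 for far-8. These fits gave 0 to 1 higher and 0 to 2 lower members and, over all genes, 151 to 2346 higher and 179 to 3268 lower. In each fit with a library left out, the single library of its group was assumed to vary like the other pair. With libraries rescaled to an equal sum, far-1 was -0.075 and 359 genes rose. DESeq2 gave far-2 0.27 and 1 higher member. Over all genes 889 fell with a pseudocount of 0.1, 288 rose and 509 fell at a mean of at least 5 CPM, 172 rose and 545 fell without the trend (0 members lower), and 913 fell by edgeR, against 572 and 1386.

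Same-numbered libraries did not deviate together (correlation -0.21). With 2 libraries per group this is a single comparison, so whether any libraries shared a batch cannot be told from it. With the replicate block far-3 (-0.88) joined far-6, for 2 lower members. Over all genes the same fit called 626 higher and 1872 lower, against 572 and 1386 without the block. With the crossed replicate block, chosen after seeing the data, 1 member was higher and 2 were lower, and 1197 genes rose and 2310 fell. Over the shortest annotated transcript, the wild-type levels of far-5 and far-7 were 16.3 and 23.3 CPM per kb, against 5.21 and 6.30. With 2 libraries per group, and 5 to 69 reads per library for far-4, far-5 and far-7, only large changes of these genes were detectable.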
